A study of Homo sapiens with 2 samples.

Results

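Housekeeping genes are transcribed in nearly every cell type, and 10 of them served here as a reference for chromatin without H3K27me3, the histone H3 modification with 3 methyl groups on lysine 27. The 10 were ACTB, GAPDH, EEF1A1, B2M, ENO1, LDHA, NPM1, HSPA8, NCL and RPLP0. They were named as a list, with earlier results of these data known, and each was read in the 10 kb window formed by the 5 bins of 1 kb on each side of its start, given to the whole kb on hg19. All 10 windows were on autosomes, which held 267143 windows of 10 kb with at least 1 read. The mark had been profiled with ChIP-seq in the established colorectal carcinoma line HCT116, grown with no treatment named in the labels. The series was 1 group of 2 libraries, described as biological replicates, with no second condition, so nothing could be compared between groups. No input library was used here, and copy number and mappability are not corrected. Whether the replicates came from separate cultures is not stated, so their spread may be technical.

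H3K27me3 is written by Polycomb repressive complex 2 and marks genes that are kept silent, many of them developmental regulators. The complex is known to settle on promoters rich in CpG, the dinucleotide C followed by G, when these are not transcribed. Housekeeping promoters are also CpG-rich but active, and active transcription and the marks that go with it are known to oppose the complex. The level is the read count per 1 kb bin over the library's mean across listed autosomal 1 kb bins, and an absent bin counts as 0. That mean was 22 reads in replicate 1 and 37.5 in replicate 2. Levels of domains, given further below, are scaled otherwise. A level of 1 is therefore the average of the genome and not the absence of the mark. The median 10 kb window stood at 0.332 in replicate 1 and 0.357 in replicate 2, and windows called enriched had median levels of 3.26 and 3.48.

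The promoters of the housekeeping genes were compared by sequence, and their expression in these cells was not measured here. The RefSeq promoter table, on GRCh38.p14, held 9 of the 10 genes, and ACTB was not matched. In the 300 bases from 250 before to 50 after the start, the G+C share of these promoters ran from 58.3% to 70.7%, with a median of 66% against 58.3% over 27305 promoters. The ratio of observed to expected CpG had a median of 0.891, against 0.580 over all promoters, with 1 entry per gene, and its lowest value was 0.761, at GAPDH. The 17 genes of the HOXA and HOXD clusters, homeobox regulators that Polycomb silences in many tissues, had a median CpG ratio of 0.875. By this measure the median housekeeping promoter lay close to the median HOX promoter. Shown here are the 250 bases before the start, 5′ to 3′ in the direction of transcription and with CpG in capitals, of the gene with the lowest level (GAPDH), the gene with the lowest surroundings (RPLP0), a gene lower than its flanks (HSPA8) and the gene with the highest level (NPM1). GAPDH is at chr12:6535014-6535263 (plus strand), RPLP0 at chr12:120201112-120201361 (minus strand), HSPA8 at chr11:123062137-123062386 (minus strand) and NPM1 at chr5:171387599-171387848 (plus strand, the first of the 2 entries listed), all on GRCh38.p14.
GAPDH: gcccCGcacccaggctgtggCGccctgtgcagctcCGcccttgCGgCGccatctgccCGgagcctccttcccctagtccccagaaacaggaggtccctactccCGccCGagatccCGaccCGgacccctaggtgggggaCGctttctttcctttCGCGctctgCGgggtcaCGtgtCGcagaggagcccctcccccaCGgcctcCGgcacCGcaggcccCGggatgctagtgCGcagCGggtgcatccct
RPLP0: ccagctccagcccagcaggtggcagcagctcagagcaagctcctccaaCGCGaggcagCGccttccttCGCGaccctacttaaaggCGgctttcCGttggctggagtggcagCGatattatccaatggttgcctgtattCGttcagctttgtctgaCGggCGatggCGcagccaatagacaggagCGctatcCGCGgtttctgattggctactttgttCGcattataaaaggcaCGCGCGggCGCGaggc
HSPA8: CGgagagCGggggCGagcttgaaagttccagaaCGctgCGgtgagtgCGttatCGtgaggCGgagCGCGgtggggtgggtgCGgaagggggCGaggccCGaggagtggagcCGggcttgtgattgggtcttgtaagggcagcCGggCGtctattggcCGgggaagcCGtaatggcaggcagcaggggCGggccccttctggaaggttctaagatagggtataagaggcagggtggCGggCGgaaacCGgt
NPM1: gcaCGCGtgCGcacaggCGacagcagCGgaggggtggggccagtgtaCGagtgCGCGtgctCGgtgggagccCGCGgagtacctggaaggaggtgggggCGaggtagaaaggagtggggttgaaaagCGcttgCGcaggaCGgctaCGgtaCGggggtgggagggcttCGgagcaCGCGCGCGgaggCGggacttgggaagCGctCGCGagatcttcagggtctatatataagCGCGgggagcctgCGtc
These stretches hold 22 CpG in GAPDH, 21 in RPLP0, 22 in HSPA8 and 29 in NPM1. The letters TATAAA, searched in the 250 bases before the start in the direction of transcription only, were found in RPLP0 alone of the 9 genes, and in 7.17% of all promoters. A match to these letters is a description and not a tested site.

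At 9 of the 10 starts H3K27me3 was low, and at no start was it enriched. The median level over the 10 genes was 0.141 in replicate 1 and 0.156 in replicate 2, which is under the median of all windows. A window was called depleted when a one-sided Poisson test against the library mean, Benjamini-Hochberg adjusted over all windows, gave a p under 0.05 and the level was at most 0.5, in both libraries. It was called enriched in the same way at a level of at least 2. Of the 10 starts 9 were depleted, where 57.9% of all autosomal 10 kb windows were, and 0 were enriched, where 13.6% were. The depleted state was thus the common state of this genome, and the count alone says little. By position, 6 of the 10 starts lay under the 25th percentile of windows in both libraries, as 18.6% of all windows did, and 9 lay under the median in both, as 47% did. No test of these shares was made. The windows of most members were small samples: they held 18 to 129 reads in replicate 1 and 24 to 274 in replicate 2. A bin of 1 kb with 0 reads allows, at 3 reads, up to 0.136 in replicate 1 and 0.0799 in replicate 2. These limits, and the Poisson intervals given with the levels, cover counting error only.

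**Figure D1:**
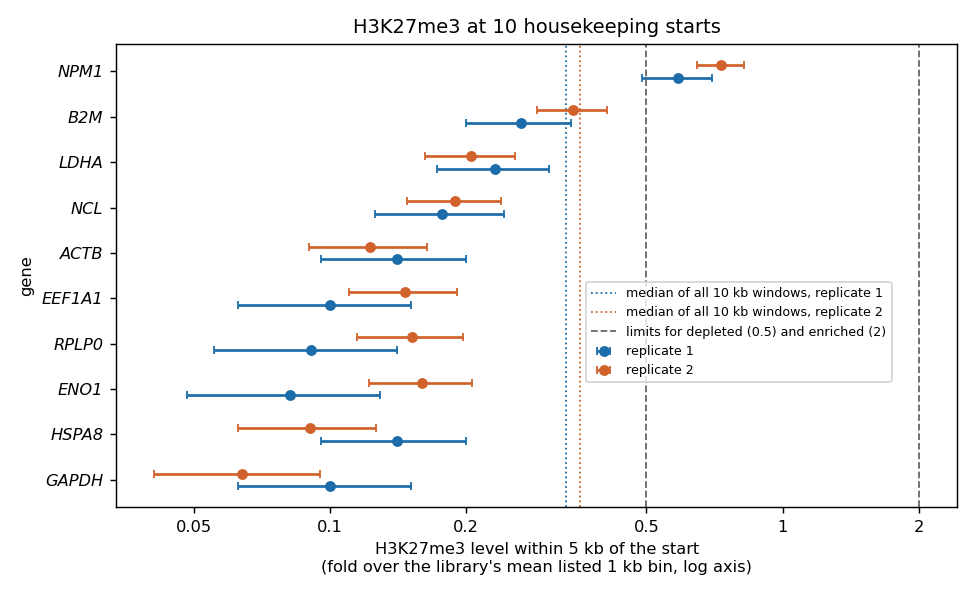
Level of H3K27me3 within 5 kb of each start (fold over the mean listed 1 kb bin, log axis), by gene and library; points are the libraries, bars are exact Poisson 95% intervals of the read count, dotted lines are the median 10 kb window of each library and dashed lines the limits of 0.5 and 2. NPM1 is the only gene above 0.5, at 0.586 and 0.730, and B2M is the next at 0.264 and 0.344.

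Of the 3 enzymes of glucose breakdown LDHA was higher than the others, while GAPDH and ENO1 overlapped between libraries. GAPDH, glyceraldehyde-3-phosphate dehydrogenase, had the lowest mean level of the 10, with 22 reads in replicate 1 (level 0.10, interval 0.0627 to 0.151) and 24 in replicate 2 (0.0639, interval 0.0410 to 0.0951), over 6638001 to 6648000 on chromosome 12. ENO1, the glycolytic enolase, held 18 and 60 reads over 8934001 to 8944000 on chromosome 1, for levels of 0.0818 and 0.160. Its libraries differed by 1.95 times, the widest gap of the 10, and the intervals of 0.0485 to 0.129 and 0.122 to 0.206 overlap only at their ends. LDHA, which turns pyruvate into lactate, held 51 and 77 reads over 18411001 to 18421000 on chromosome 11, for levels of 0.232 and 0.205. This was above GAPDH and ENO1 in each library.

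The genes of protein synthesis were low in both libraries. EEF1A1, the elongation factor that brings aminoacyl-tRNA to the ribosome, held 22 and 55 reads over 74226001 to 74236000 on chromosome 6, for levels of 0.10 and 0.147. RPLP0, a protein of the ribosomal stalk, held 20 and 57 reads over 120634001 to 120644000 on chromosome 12, for levels of 0.0909 and 0.152. These genes could not be told apart by level, since the libraries of one span those of the other. NCL encodes nucleolin, a main protein of the nucleolus, where ribosomes are made. It held 39 and 71 reads over 232324001 to 232334000 on chromosome 2, for levels of 0.177 and 0.189. Its replicates lay closest together of the 10, with a mean of 0.183 ± 0.00842 (SD, n = 2), above EEF1A1 and RPLP0 in each library.

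NPM1, which encodes nucleophosmin, another nucleolar protein and histone chaperone, was the gene not called depleted. It held 129 reads in replicate 1 (level 0.586, interval 0.490 to 0.697) and 274 in replicate 2 (level 0.730, interval 0.646 to 0.822), over 170809001 to 170819000 on chromosome 5. NPM1 was above the other 9 genes and above the median window in both libraries, at percentiles 64.2 and 67.2. It lay under the genome average by the exact Poisson test (Benjamini-Hochberg adjusted p = 3.13e-11 and 3.53e-08), but not at or under the limit of 0.5. The starts are known only to the whole kb, and this call turned on that: with the start moved up by 1 kb, a setting chosen after seeing the data, NPM1 stood at 0.418 and 0.469 and all 10 starts were depleted. With the start moved down by 1 kb it stood at 0.673 and 0.877.

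The remaining genes have other roles. ACTB, the cytoskeletal beta actin, held 31 and 46 reads over 5565001 to 5575000 on chromosome 7, for levels of 0.141 and 0.123. HSPA8, the constitutive heat shock cognate chaperone, held 31 and 34 reads over 122929001 to 122939000 on chromosome 11, for levels of 0.141 and 0.0906. B2M, the light chain of MHC class I, held 58 and 129 reads over 44998001 to 45008000 on chromosome 15, for levels of 0.264 and 0.344. B2M was above every member but NPM1 in each library.

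Ordered by mean level, the genes ran GAPDH, HSPA8, ENO1, RPLP0, EEF1A1, ACTB, NCL, LDHA, B2M and NPM1. From GAPDH to ACTB each neighbour overlapped the next, with means from 0.0820 to 0.132, so no neighbours among these 6 were separated beyond the spread of the libraries. From ACTB on, the ranges of 2 libraries did not overlap between neighbours, with means of 0.132 ± 0.0130 for ACTB, 0.218 ± 0.0188 for LDHA, 0.304 ± 0.0566 for B2M and 0.658 ± 0.102 for NPM1 (SD, n = 2). With 2 libraries this order has no test. A two-sided binomial test of how the reads of each window were split between the libraries, Benjamini-Hochberg adjusted over all windows, called 0 of the 10 members different, where 6.60% of all windows were called. At an unadjusted p under 0.05 there was 1 member, ENO1, where 21.4% of all windows passed. With counts divided by the dispersion between the libraries of 2.66 there were 0, where 3.81% of all windows passed, so neither count sets the members apart. This test compares these libraries only. It also depends on the reads per window, and 9 members held fewer than the median window in both libraries, which limits it.

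**Figure D2:**
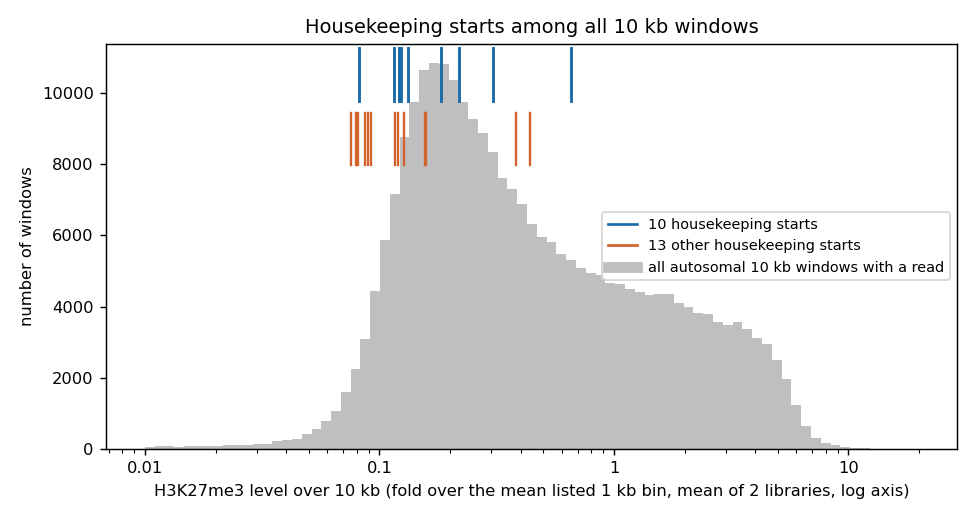
Number of autosomal 10 kb windows by level (mean of 2 libraries, log axis), with blue ticks for the 10 housekeeping starts and orange ticks for 13 other housekeeping starts. Both sets lie mostly on the left side of the main peak of windows, from 0.0759 upward, and NPM1 at 0.658 is the highest of them.

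Read bin by bin, the windows held less signal next to the start than at 20 to 50 kb from it. Of the 100 bins within 5 kb of the 10 starts, 93 were listed in at least 1 library. By the same Poisson rule over all listed autosomal 1 kb bins, 82 were depleted, where 54.2% of all bins were, and 0 were enriched, where 12.7% were. The remaining 11 listed bins passed neither rule. The median over genes of the level in the bins next to the start was 0.0795 in replicate 1 and 0.0932 in replicate 2. It was 0.186 and 0.198 at 2 to 5 kb, 0.245 and 0.312 at 5 to 10 kb, 0.260 and 0.256 at 10 to 20 kb, and 0.357 and 0.376 at 20 to 50 kb. At 20 to 50 kb the median gene therefore stood near the median 10 kb window of the genome, at 0.332 and 0.357. It stood under the median 100 kb window, at 0.404 and 0.435. Neither window size is that of the bins averaged here.

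Unlisted bins touch these values. Within 5 kb, 27 of 100 bins had no read in replicate 1, 15 had none in replicate 2, and 7 had none in either. ACTB held 4 of those 7, namely the bins from 5566001 to 5569000 and from 5570001 to 5571000, and GAPDH, B2M and LDHA held 1 each. In the GRCh38 gene list, 9 of the 10 genes have pseudogenes named after them, 65 for GAPDH, 50 for EEF1A1, 50 for NPM1, 20 for HSPA8 and 14 for ACTB, while B2M has 0. Reads from near-identical copies may not be placed uniquely, and the treatment of mapping quality is not given in the sources used here. The levels over these gene bodies are therefore uncertain, and the part of such copies in the low values was not tested.

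The upstream and downstream sides differed in how far the genes spread. The strand was given for 9 genes, all but ACTB. Over the 5 kb downstream of the start, which covers transcribed sequence, the 9 genes lay between 0.0364 and 0.191 in replicate 1 and between 0.0746 and 0.208 in replicate 2. Over the 5 kb upstream they ran from 0.0364 to 1.06 and from 0.0426 to 1.37. Downstream 9 of 9 were depleted and upstream 8 of 9, where 57.9% of all 5 kb windows were depleted. The upstream side was higher in both libraries at B2M, ENO1, LDHA, NPM1 and NCL, and the downstream side at GAPDH, EEF1A1 and RPLP0. At HSPA8 the libraries differed. The 5 kb sides of EEF1A1 were nearly equal, with 10 and 27 reads upstream against 12 and 28 downstream. RPLP0 held 4 and 26 reads upstream against 16 and 31 downstream. Over 50 kb the direction turned at LDHA, with 0.172 and 0.162 upstream against 0.393 and 0.378 downstream. At EEF1A1 the upstream side was higher over 50 kb, with 0.246 and 0.310 against 0.117 and 0.119 downstream. No direction was thus common to the 9 genes.

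**Figure D3:**
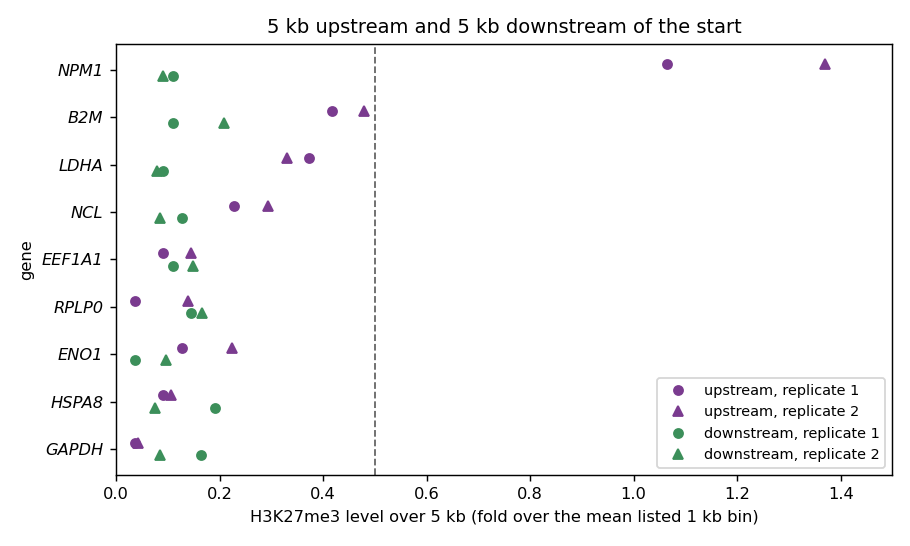
Level over the 5 kb upstream (purple) and the 5 kb downstream (green) of the start for 9 genes, with circles for replicate 1 and triangles for replicate 2; the dashed line is the limit of 0.5. Downstream values stay at or under 0.208, while upstream values reach 1.06 and 1.37 at NPM1.

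The reads of NPM1 lay mostly on its upstream side. Its 5 upstream bins held 117 reads in replicate 1 and 257 in replicate 2, for levels of 1.06 and 1.37. Its 5 downstream bins held 12 and 17 reads, for levels of 0.109 and 0.0906, in the range of the other genes. Going towards the start from 5 kb upstream, the bins held 40, 34, 22, 13 and 8 reads in replicate 1 and 102, 78, 43, 20 and 14 in replicate 2. In the bin after the start 3 and 0 reads were counted. Over these 5 kb the level went from 1.82 to 0.364 in replicate 1 and from 2.72 to 0.373 in replicate 2. Within 2 kb of the start NPM1 stood at 0.273 and 0.266, so the higher bins of its window lay beyond that, though none of them was enriched in both libraries. The 5 to 50 kb around it averaged 0.766 and 0.809. The upstream 50 kb stood at 1.35 and 1.41 and the downstream 50 kb at 0.149 and 0.190, so the higher levels lay on the upstream side at this distance too.

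B2M, LDHA and NCL were also higher on the upstream side, by less. Over 5 kb upstream B2M stood at 0.418 and 0.480 against 0.109 and 0.208 downstream. LDHA stood at 0.373 and 0.330 against 0.0909 and 0.0799. NCL stood at 0.227 and 0.293 against 0.127 and 0.0853, and the bin from 232337001 to 232338000, beyond that window on the same side, stood at 2.05 and 1.73. All of these 5 kb levels were below the library mean.

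The surroundings of the starts were of different kinds. Within 50 kb the levels ran from 0.0823 to 1.19 in replicate 1 and from 0.104 to 1.24 in replicate 2, with medians of 0.364 and 0.370, and 6 of 10 windows of 100 kb were depleted, where 54.2% of all such windows were. None of the 10 was enriched, where 13.3% were. RPLP0 lay in the lowest surroundings, at 0.0823 and 0.104 or percentiles 2.13 and 2.67 of all 100 kb windows, and none of its bins within 50 kb held more than 10 reads in replicate 1 or 14 in replicate 2. GAPDH at 0.116 and 0.145, ACTB at 0.169 and 0.164 and EEF1A1 at 0.182 and 0.215 also had low averages, with single bins of up to 1.07, 1.00 and 1.23 in 1 of the libraries. LDHA at 0.282 and 0.270 was intermediate, and so was NCL at 0.445 and 0.470, the last of the 6 depleted ones. B2M (1.19 and 1.24), HSPA8 (0.904 and 0.933), NPM1 (0.748 and 0.801) and ENO1 (0.638 and 0.656) were not depleted. These 4 genes were also the ones with bins enriched in both libraries: 17 of 100 at B2M, 8 at HSPA8, 5 at NPM1 and 4 at ENO1. Together the 10 genes had 34 enriched bins of 1000, or 3.4%, against 12.7% of all bins.

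**Figure D4:**
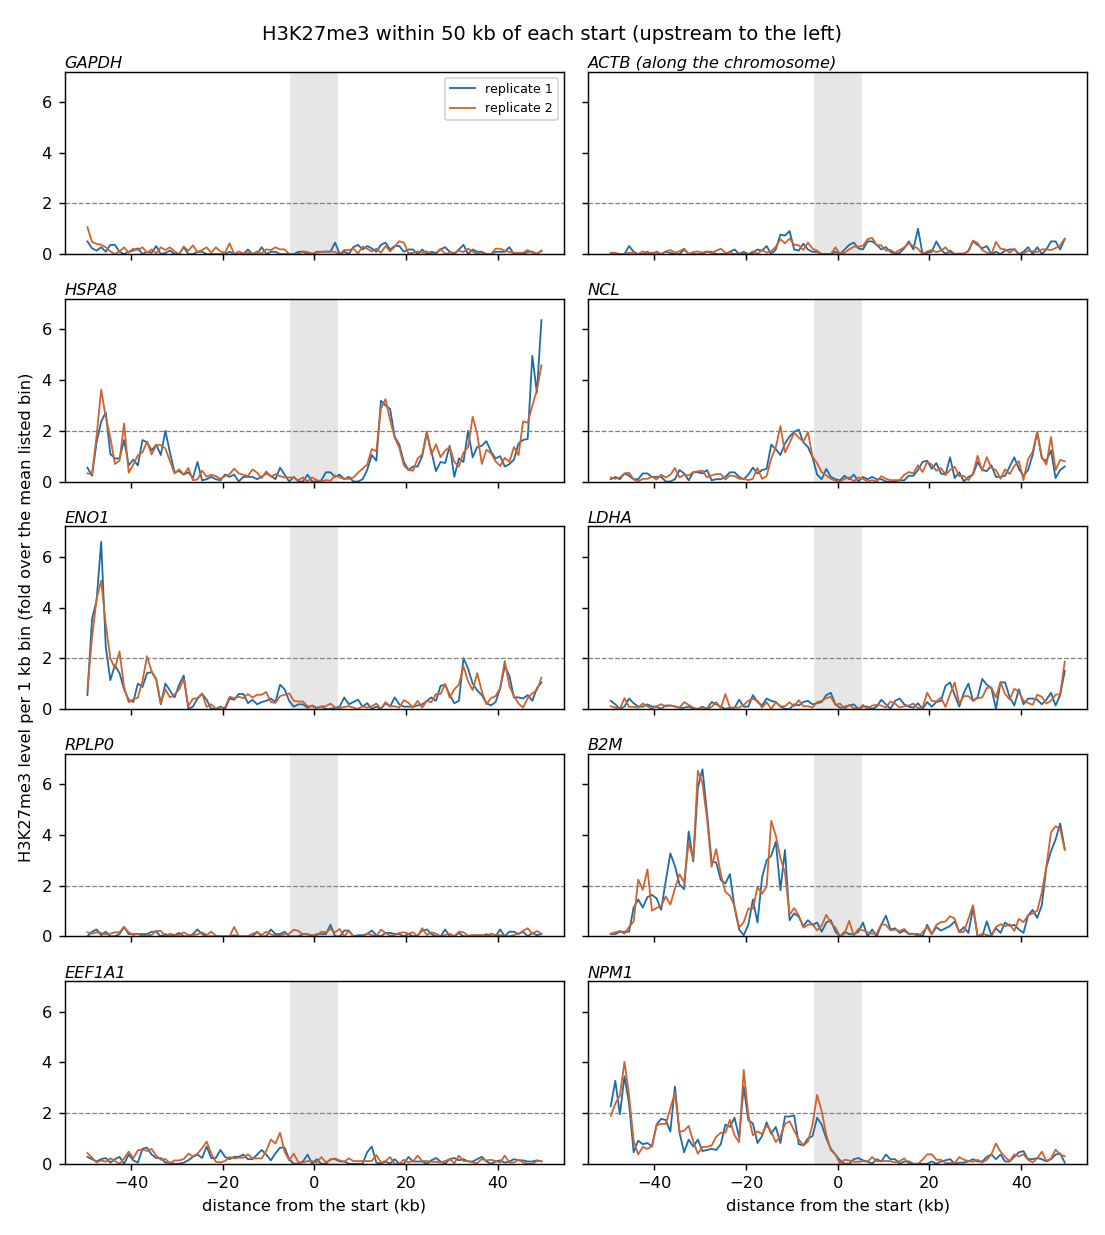
Level of H3K27me3 per 1 kb bin (fold over the mean listed bin) against the distance from the start in kb, by gene, with upstream to the left except for ACTB, drawn along the chromosome; blue is replicate 1, orange replicate 2, grey the 5 kb on each side and the dashed line a level of 2. RPLP0 stays at or under 0.454 and GAPDH, ACTB and EEF1A1 at or under 1.23 in each bin, while B2M and HSPA8 are low at the start with peaks on both sides, the highest of them 6.59 and 6.05 at B2M.

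HSPA8 and B2M show how close low and marked chromatin lay. HSPA8 stood at 0.141 and 0.0906 within 5 kb, while from 5 to 50 kb its flanks averaged 0.989 and 1.03. Its window was thus at 0.142 and 0.0882 of its own flanks. A peak of 3 enriched bins began 14 kb downstream of its start, with 70, 66 and 63 reads in replicate 1 and 108, 122 and 91 in replicate 2. B2M stood at 0.264 and 0.344 with flanks of 1.3 and 1.34, or 0.203 and 0.257 of them. Its highest bin by the mean of both libraries, from 44973001 to 44974000, held 145 and 227 reads, 6.59 and 6.05 times the mean, upstream of the start. ENO1 stood at 0.117 and 0.225 of its flanks and NCL at 0.373 and 0.378. These 4 of 10 genes lay at or under 0.5 of their flanks in both libraries, as 11.5% of all 10 kb windows did. RPLP0 was the one gene not below its flanks in both libraries, at 1.12 and 1.54 of them, since those were as low as the start.

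**Figure D5:**
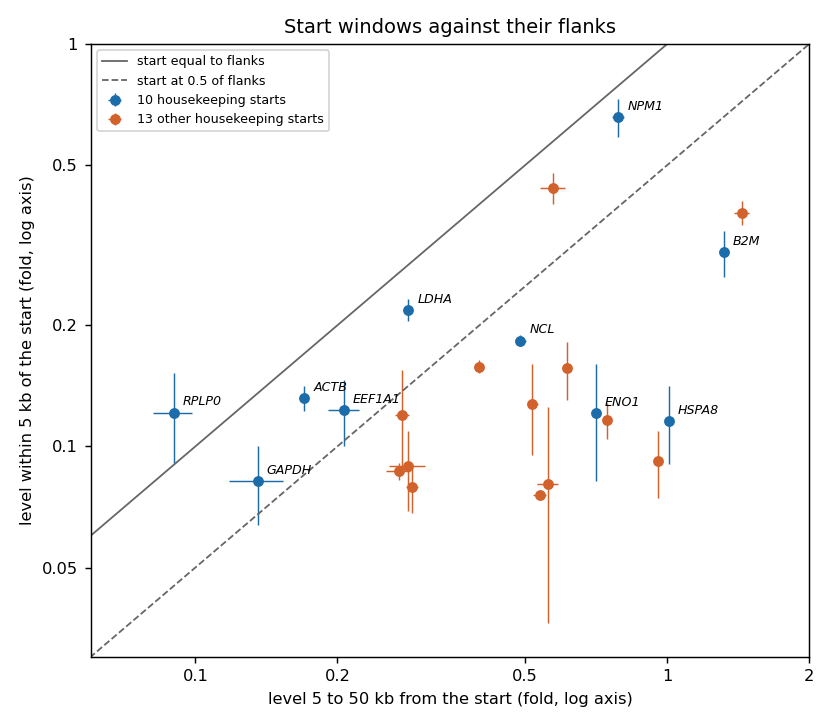
Level within 5 kb of the start against the level from 5 to 50 kb away (both folds on log axes), for the 10 housekeeping starts (blue, named) and 13 other housekeeping starts (orange); points are means and bars join the 2 libraries. Start levels of HSPA8 and ENO1 match those of RPLP0 and EEF1A1 although their flanks are higher.

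The distance to marked domains differed as widely. Domains were built from 5 kb bins at least 2-fold over the mean and past the Poisson test in both libraries, joined over gaps of at most 1 bin. No member start lay in a domain, as 15.9% of all 5 kb bins did. The nearest domain was 13 kb away at B2M, 14 kb at HSPA8, 44 kb at NPM1, 46 kb at ENO1, 86 kb at NCL, 107 kb at GAPDH, 126 kb at LDHA, 166 kb at RPLP0, 330 kb at ACTB and 336 kb at EEF1A1. The median of 96.5 kb compares with 122.5 kb over all 5 kb bins and 202.5 kb over 5 kb bins outside domains. No test was made of these differences. Within 50 kb of a domain were 4 of the 10 starts, 37.7% of all 5 kb bins and 25.9% of the bins outside domains. The B2M domain covered 44970001 to 44990000 on chromosome 15, on the upstream side, at 3.63 ± 0.152 (SD, n = 2). The HSPA8 domain was a single bin from 122915001 to 122920000 on chromosome 11, downstream, at 2.60 ± 0.219 (SD, n = 2). The NPM1 domain covered 170750001 to 170770000 on chromosome 5, upstream, at 3.91 ± 0.126 (SD, n = 2), and the ENO1 domain was the bin from 8985001 to 8990000 on chromosome 1, upstream, at 3.25 ± 0.517 (SD, n = 2). In the order of protein-coding genes on GRCh38, NPM1 follows RANBP17 and the homeobox gene TLX3 and precedes FGF18. HSPA8 lies between the homeobox gene BSX and CLMP, B2M between PATL2 and TRIM69, and ENO1 between RERE and CA6. No domain is assigned to a gene here, since gene positions on hg19 were not used beyond the starts.

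Other housekeeping genes gave like values. A list of 13 was read at whole-kb starts on hg19 taken from general knowledge: TBP, POLR2A, PPIA, HSP90AB1, TUBA1B, EEF2, RPL13A, RPS18, TPI1, PKM, SDHA, TFRC and GUSB. All 13 were depleted within 5 kb, where 57.9% of windows were, and 0 were enriched. Their median level was 0.109 in replicate 1 and 0.125 in replicate 2. The lowest means were at SDHA, a subunit of succinate dehydrogenase, with 0.0773 and 0.0746, and at the elongation factor gene EEF2, with 0.0682 and 0.0906. The highest were at TFRC, the transferrin receptor gene, with 0.40 and 0.477, and at the chaperone gene HSP90AB1, with 0.355 and 0.408. At or under 0.5 of their flanks in both libraries were 11 of the 13, against 4 of the 10 members and 11.5% of all windows. Over 100 kb 6 of the 13 were depleted, where 54.2% of all windows were, so that count does not set them apart. HSP90AB1 lay in surroundings of 1.28 and 1.38, like those of B2M. With these genes added, 22 of 23 housekeeping starts were depleted, all but NPM1.

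HOX clusters were read as a reference meant to be marked, but neither had a stretch of 10 kb at 2 or more in both libraries. Their hg19 intervals were taken from general knowledge. Over 176957001 to 177056000 on chromosome 2 the HOXD cluster stood at 1.11 in replicate 1 and 1.09 in replicate 2, and its highest stretch of 10 kb reached 1.77 and 2.04. The HOXA cluster, over 27132001 to 27240000 on chromosome 7, stood at 0.353 and 0.346, with 6 of its 10 stretches at or under 0.5 in both libraries. By the limit of 2 neither cluster was a marked reference in these cells, which does not mean that the mark was absent. HOXD stood near the genome mean and above the median 100 kb window, which was 0.404 in replicate 1 and 0.435 in replicate 2. The 75th percentile of those windows was 1.08 and 1.15. Of the 9 HOXD stretches 0 were at or under 0.5 in both libraries. The clusters span about as much as the 100 kb windows of the members, among which B2M, at 1.19 and 1.24, was above HOXD in each library. With 2 libraries of 1 group these differences have no test. The label of the 10 genes as unmarked met no enriched bin within 5 kb of any start. It does not set them apart from the genome by the depleted count alone, since 57.9% of all windows were depleted too.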

How the data were processed

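H3K27me3 ChIP-seq of HCT116 cells, 2 libraries in 1 group, was read from deposited counts: per the deposited column description each row is a read count in a bin of 1000 bases, and a bin without reads has no row. Per the submitters' processing notes, the aligner was BWA 0.7.12 and the build hg19. How duplicates and mapping quality were treated, and with which tool reads were counted, is not given in the sources used here. Total depth was 53187504 and 97031399 reads.

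Of listed autosomal bins with 1 to 10 reads, 67.8% and 67.7% held an even count, so reads may be mates counted one by one and the Poisson tests and intervals too narrow. Windows of 10 kb and 100 kb were tiled over chromosomes 1 to 22, and the member windows were tested among them. Tests were one-sided Poisson tests per library and a binomial test between libraries, with Benjamini-Hochberg adjustment, run also on simulated data. The simulated counts were Poisson draws without the dispersion of 2.66 between the real libraries, so they do not show the error rate in these data. A planned permutation test of upstream against downstream over genes was not run, since genes are not replicates. Promoter sequences came from RefSeq (GRCh38.p14), matched by symbol. Named are all 10 members and, of 13 other genes, the 2 lowest and 2 highest (part of the planned list is not reported here); the flank ratio, the 5 kb side calls and the percentile counts were chosen after values were seen. Members and lists were chosen with earlier results of these data known. Alternatives were other widths, scalings, limits, shifts, domain rules, the dispersion, and each replicate left out. The work ran in Python 3.11.15 with scipy 1.17.1, numpy 2.4.6, matplotlib 3.10.9 and pandas 2.3.3.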

Additional observations from a re-analysis of the deposited data

How the results depend on the processing

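The median level of 0.148 (mean of both libraries) became 0.0956 within 2 kb, 0.215 within 10 kb, 0.134 with starts shifted 1 kb down, 0.177 without the bin on each side of the start, 0.204 with absent bins left out, 0.175 with unlisted bins in the mean and 0.381 when scaled to the median bin; it was 0.141 to 0.156 with a replicate left out, and 0.146 without NPM1, a setting chosen after seeing the data. The level within 50 kb of 0.367 became 0.235 within 25 kb and 0.442 within 100 kb, and 0.364 to 0.370 with a replicate left out. The 9 depleted starts became 8 at a limit of 0.25, 10 with no limit and 6 when scaled to the median bin. At these settings 35.2%, 70.6% and 24.3% of all windows were depleted. The depleted starts were 9 against a background of completely listed windows (23% depleted), although each member window has unlisted bins itself. They were 9 with the dispersion, but 154566 windows were called both with and without it. The limit on the level thus decided the call, and the dispersion could give no other count. The depleted starts were also 9 with either replicate left out. With starts shifted 1 kb they were 9 (down) and 10 (up), NPM1 being the gene that changed; these shifts of the call were added after seeing the data. Enriched starts were 0 with no limit on the level and with either replicate left out. All 10 starts lay under the mean of each library, at most at 0.586 and 0.730, so these settings could give no other count. Enriched starts were also 0 at a limit of 3, which is stricter than 2 and could give no other count. Other widths, scalings and shifts were not tried for the enriched call. The upstream side was higher at 5 genes over 2, 5 and 50 kb, but not the same genes (beside B2M, ENO1 and NPM1, LDHA and HSPA8 at 2 kb, LDHA and NCL at 5 kb, EEF1A1 and NCL at 50 kb), and at 5 to 6 with a replicate left out. The distance of 96.5 kb to the nearest domain became 188.5 kb at 3-fold and stayed at 96.5 kb with no gap; it was 70 to 96.5 kb with a replicate left out, 70 kb without replicate 2. All 13 other genes were depleted within 2 kb and with either replicate left out. For each of these moves the cause was not tested. Depth limits a single bin more than a window. No paired analysis was possible because the series is a single group of 2 libraries.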
